A study of Homo sapiens with 6 samples.

Results

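The S100 genes encode small calcium-binding proteins. The 10 described here (S100A2, S100A3, S100A4, S100A6, S100A8, S100A9, S100A10, S100A11, S100A14 and S100P) were taken by gene symbol from 58381 genes counted in 786-0 cells, and 11 further S100 genes in the same count files serve as the rest of the family. The cell line 786-0 is an established human clear cell renal cell carcinoma line. The labels give all 6 libraries a knockout of SETD2, the methyltransferase that trimethylates lysine 36 of histone H3, so no group here has intact SETD2, and the labels do not say whether the knockout is a single clone. The groups were DMSO, the vehicle, decitabine at 100 nM and decitabine at 300 nM, with 2 libraries each. The agent or vehicle was added on each of 3 days, fresh medium was given on day 4 and the cells were collected on day 5. By its title the study is about how kidney cancer cells without SETD2 respond to agents that lower DNA methylation.

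S100 proteins carry a pair of EF-hand calcium-binding loops and work mostly as dimers that bind a target protein when calcium rises. S100A10 is the exception that no longer needs calcium and sits with annexin A2 at the plasma membrane. Some members are also released from cells and bind surface receptors such as RAGE and TLR4. Most S100 genes lie together in the epidermal differentiation complex of chromosome 1. Decitabine, a nucleoside drug, depletes the enzymes that methylate cytosine, and dividing cells then lose the mark.

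Each library held 89159112 to 96646427 reads assigned to genes. A count of 0 allows up to 3 reads in a library, or 0.0310 to 0.0337 CPM (reads scaled to a common library total), counting error alone considered. Levels below are CPM scaled with TMM factors, given as the value in each library and as mean ± SD over the 2 libraries of a group. Nothing in the labels says that the 2 libraries of a group were grown separately, and p-values thus cover only the spread between libraries, which may be technical. In bulk RNA, more cells that express a gene and more RNA per cell cannot be told apart. Kidney and carcinoma markers were present in part. PAX8, a nephric transcription factor, stood at 254.1 CPM with DMSO, PAX2 at 24.0 CPM, and VIM, KRT8 and KRT18 at 1819, 773.3 and 105.0 CPM. NDUFA4L2 and CUBN stood at only 0.110 and 0.807 CPM with DMSO. At 300 nM PAX8 and PAX2 were lower, at 80.3 and 17.9 CPM. VIM, KRT8, KRT18, NDUFA4L2 and CUBN were higher there, at 2233, 2079, 511.2, 1.43 and 8.19 CPM. CA9, a hypoxia-inducible carbonic anhydrase common in this tumour type, had 0 reads with DMSO, 22 at 100 nM and 51 at 300 nM. LRP2, the proximal tubule receptor megalin, had at most 4 reads in any library.

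Decitabine raised most of the measured S100 genes, by very different amounts. S100A4 rose 27.8-fold at 100 nM and 32.0-fold at 300 nM, S100P went from 0 reads to a few CPM, S100A3 and S100A14 rose 6.24-fold and 6.71-fold at 300 nM, and the abundant S100A2, S100A6, S100A10 and S100A11 rose between 1.46-fold and 2.41-fold, a rise whose direction changed for some of them with corrections for transcript length given below. S100A8 and S100A9 stayed at 4 reads or fewer in every library. Of the 10 genes, 8 passed the filter on low counts, S100P only through the decitabine groups, and S100A8 and S100A9 did not. S100P is therefore left out of the counts against DMSO. Of the other 7, 6 were called higher and 0 lower at 100 nM, and 7 higher and 0 lower at 300 nM (edgeR quasi-likelihood test, two-sided, Benjamini-Hochberg adjusted p under 0.05 over 23160 genes). Over all genes tested, 42.7% were called at 100 nM (24.0% higher and 18.7% lower) and 65.9% at 300 nM (34.8% higher and 31.1% lower). The median log2 fold change of the 7 was 0.65 at 100 nM and 1.27 at 300 nM, against 0.03 and 0.05 over all genes tested. Protein-coding genes of up to 1.57 kb averaging 1 CPM or more, as short as the members, had medians of 0.26 and 0.68. Of these short genes 44.8% were called higher at 100 nM and 66.4% at 300 nM. The plot of levels by library shows all 10 genes.

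**Figure D1:**
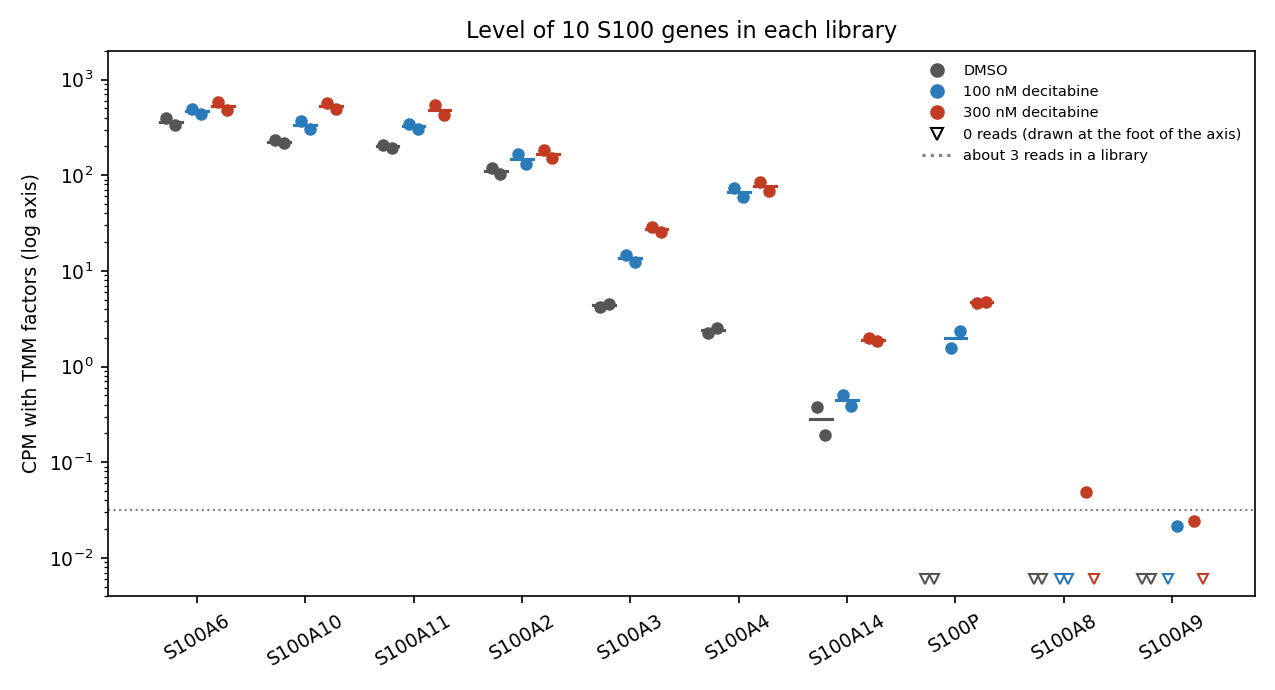
CPM with TMM factors on a log axis for each S100 gene, with 1 point per library and a bar at the mean of the 2 libraries of a group. Open triangles are libraries with 0 reads, and the dotted line marks about 3 reads in a library. S100A4 moves from under 3 CPM with DMSO to between 58.8 and 84.2 CPM with decitabine, whereas S100A8 and S100A9 lie at or near 0 in every group.

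S100A4, a calcium sensor that binds non-muscle myosin and is used as a marker of fibroblast-like and invasive cells, had the largest rise among the members with DMSO reads. The gene lies at chromosome 1, 153543613 to 153550136 on the minus strand (ENSG00000196154.11, GRCh38). Its level was 2.26 and 2.52 CPM in the DMSO libraries, 74.1 and 58.8 CPM at 100 nM, and 84.2 and 68.7 CPM at 300 nM. Every decitabine library lay far above both DMSO libraries, while the libraries of the 2 doses overlapped. S100A4 rose by 4.80 on the log2 scale with 100 nM decitabine (SE 0.17, adjusted p = 4.2e-13, edgeR), and 300 nM gave 5.00 (SE 0.17, adjusted p = 1.5e-13). Between the doses it was 0.20 (SE 0.13, adjusted p = 0.241), so no further rise was called above 100 nM. With offsets that remove the trend on transcript length and GC content, described below, the difference between the doses was -0.31 (adjusted p = 0.007), lower at 300 nM.

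S100P, first found in placenta and known to bind ezrin and the receptor RAGE, had no DMSO reads at this depth. It is the only 1 of the 10 outside chromosome 1, at chromosome 4, 6693069 to 6697170 on the plus strand (ENSG00000163993.6). It had 0 and 0 reads with DMSO, 153 and 219 reads at 100 nM, and 385 and 445 reads at 300 nM. Its level was 1.56 and 2.37 CPM at 100 nM and 4.65 and 4.70 CPM at 300 nM, and the groups did not overlap. Against a DMSO group set at 3 reads in all, it was 124.5-fold higher at 100 nM and 296.3-fold higher at 300 nM. Small counts were mostly even, so 0 reads may allow more than 3 and these folds are not strict lower bounds. These values are a description, since the gene passed the filter only through the groups where it is high. From 100 to 300 nM it rose by a log2 value of 1.25 (SE 0.23, adjusted p = 4.5e-04, edgeR).

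S100A3, a cysteine-rich member known from the hair cuticle, lies within the span of S100A4 on the same strand, at chromosome 1, 153547329 to 153549372 (ENSG00000188015.9). No exon bases are shared between the 2 genes in the annotation. Its level was 4.20 and 4.54 CPM with DMSO, 14.8 and 12.2 CPM at 100 nM, and 28.98 and 25.58 CPM at 300 nM. The 3 groups did not overlap and followed the dose. On the log2 scale it rose by 1.63 at 100 nM (SE 0.15, adjusted p = 1.2e-07, edgeR) and by 2.64 at 300 nM (SE 0.15, adjusted p = 1.2e-10). Unlike S100A4, for which no step between the doses was called, S100A3 rose from 100 to 300 nM by 1.01 (SE 0.14, adjusted p = 2.5e-05). The difference between these 2 genes was not tested.

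S100A14, a member found in lining epithelia, changed late in the dose range. It lies at chromosome 1, 153614255 to 153616986 (ENSG00000189334.8). Its level was 0.374 and 0.192 CPM with DMSO, from 36 and 18 reads, then 0.499 and 0.390 CPM at 100 nM and 1.98 and 1.84 CPM at 300 nM. The 100 nM libraries lay just above the DMSO libraries and the 300 nM libraries well above both. Against DMSO the log2 difference was 0.65 (SE 0.38, adjusted p = 0.190, edgeR) at 100 nM, which was not called, and 2.75 (SE 0.36, adjusted p = 3.9e-06) at 300 nM. The step from 100 to 300 nM was 2.10 (SE 0.34, adjusted p = 1.2e-04). The 9 keratinocyte markers, checked because this gene and S100A2 are made in stratified epithelia, summed to 47.6 to 47.7 CPM with DMSO, 48.8 to 53.0 CPM at 100 nM and 60.3 to 64.7 CPM at 300 nM, nearly all of it KRT10. Of the 5 tested markers, KRT10 was called higher at 300 nM (log2 0.27, adjusted p = 0.041, edgeR) and lower with offsets (-0.33, adjusted p = 5.0e-04, edgeR). DSG3, KRT5, KRT14 and TP63 had at most 6 reads in a DMSO library and passed the filter only through the decitabine groups. Their calls at 300 nM, all higher, are therefore a description and are not set against the share of all genes. KRT14 went from 0.0418 to 4.27 CPM at 300 nM, KRT5, TP63 and DSG3 stayed under 1 CPM in every library, and KRT1, LOR and SPRR1B had 0 reads in every library. Their part in these results was not tested.

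The promoters of these genes differ in their CpG dinucleotides, the bases that DNA methyltransferases mark. The 250 bases upstream of the RefSeq start (GRCh38.p14, gene strand, 5′ to 3′) are shown for S100A4 and S100P, which had the largest rises, for S100A6, an abundant neighbour of S100A4 that moved little, and for S100A9, which stayed near 0. Capitals mark CpG. The windows are chr1:153545807-153546056 (minus strand), chr4:6693628-6693877 (plus), chr1:153535992-153536241 (minus) and chr1:153357604-153357853 (plus).
S100A4: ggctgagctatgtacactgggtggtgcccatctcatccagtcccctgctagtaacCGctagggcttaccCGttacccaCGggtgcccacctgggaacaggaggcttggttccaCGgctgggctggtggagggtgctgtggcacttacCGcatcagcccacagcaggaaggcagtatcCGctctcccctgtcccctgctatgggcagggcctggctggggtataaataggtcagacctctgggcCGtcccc
S100P: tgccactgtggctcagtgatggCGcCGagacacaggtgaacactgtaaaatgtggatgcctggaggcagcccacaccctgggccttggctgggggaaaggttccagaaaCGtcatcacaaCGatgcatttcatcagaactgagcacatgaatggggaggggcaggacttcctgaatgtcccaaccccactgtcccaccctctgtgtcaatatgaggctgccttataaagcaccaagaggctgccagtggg
S100A6: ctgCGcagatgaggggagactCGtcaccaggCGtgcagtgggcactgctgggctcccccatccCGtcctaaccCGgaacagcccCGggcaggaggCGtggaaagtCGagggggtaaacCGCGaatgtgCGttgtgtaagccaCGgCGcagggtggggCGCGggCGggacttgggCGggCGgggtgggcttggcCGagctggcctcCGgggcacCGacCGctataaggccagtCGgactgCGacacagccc
S100A9: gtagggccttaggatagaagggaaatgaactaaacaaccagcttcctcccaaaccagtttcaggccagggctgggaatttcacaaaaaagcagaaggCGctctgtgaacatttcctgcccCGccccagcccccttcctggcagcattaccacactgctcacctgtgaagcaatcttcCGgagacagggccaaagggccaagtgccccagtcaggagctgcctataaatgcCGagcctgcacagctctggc

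S100A4 holds 7 CpG in its window, S100P 4, S100A6 24 and S100A9 4. The median over 35116 windows of the same length before RefSeq gene starts was 11, with quartiles of 3 and 23. S100A3 and S100A14 hold 4 each, S100A10 24 and S100A11 15. The 4 genes that rose at least 6-fold at 300 nM on the deposited counts therefore lie below the median. With the offsets described below, S100A3 and S100A14 rose by less, at log2 1.74 and 1.99 with 300 nM. Also below the median are S100A2, with 4 and 3 CpG at its 2 RefSeq starts, and S100A8, with 2 at each of 3 starts. S100A2 rose 1.5-fold at 300 nM and S100A8 and S100A9 stayed at or near 0 reads, so few CpG and a large rise did not go together in every member. Methylation itself was not measured. The letters TATAAA, searched on both strands, occur in the windows of S100A4, S100P, S100A9 and 2 of the 3 S100A8 windows, and in 10.7% of all windows. TGANTCA, the AP-1 pattern, occurs at S100A3 and at 1 of the 2 S100A2 starts (6.57% of all windows), and the kappaB consensus at S100A14 (9.96%). No window of the 10 genes held more than 1 of these 3 patterns.

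The 4 abundant members, S100A6, S100A10, S100A11 and S100A2, carried 99.2% to 99.3% of the summed CPM of the 10 genes with DMSO. S100A6 (calcyclin, which binds the calcyclin-binding protein CACYBP) had 393.3 and 333.3 CPM with DMSO, 495.8 and 436.2 CPM at 100 nM, and 580.3 and 480.3 CPM at 300 nM. S100A10, the annexin A2 partner that also binds plasminogen, had 233.7 and 215.8 CPM, then 364.3 and 307.0 CPM, then 574.1 and 495.9 CPM. S100A11, which binds annexin A1, had 208.1 and 194.4 CPM, then 346.3 and 305.2 CPM, then 541.1 and 428.2 CPM. In each of these genes both libraries at either dose lay above both DMSO libraries. S100A2, an epithelial member known to bind p53, had 120.2 and 103.4 CPM with DMSO, 165.0 and 132.1 CPM at 100 nM, and 182.8 and 151.6 CPM at 300 nM. For S100A2 and S100A6 the 2 doses overlapped. S100A6 shares 23 exon bases with an antisense gene of 288 reads in all, which counting without strand cannot separate.

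S100A10 rose by a log2 value of 0.58 at 100 nM (SE 0.11, adjusted p = 3.9e-04, edgeR) and of 1.25 at 300 nM (SE 0.11, adjusted p = 3.0e-08). S100A11 rose by 0.69 (SE 0.12, adjusted p = 1.1e-04) and 1.27 (SE 0.12, adjusted p = 4.6e-08). Both rose again from 100 to 300 nM, by 0.67 (adjusted p = 1.1e-04) and 0.57 (adjusted p = 7.0e-04). S100A2 rose by 0.41 (adjusted p = 0.015) and 0.58 (adjusted p = 7.0e-04), and S100A6 by 0.36 (adjusted p = 0.018) and 0.55 (adjusted p = 5.3e-04). The 100 nM calls of S100A2 and S100A6 ended without replicate 2 of DMSO (adjusted p = 0.18 and 0.27) or replicate 1 of 100 nM (0.21 and 0.16).

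These rises have to be read against transcript length, because short transcripts were higher with decitabine as a class. The merged exons of the 10 genes span 0.577 to 1.57 kb, against a median of 5.14 kb over the 12432 protein-coding genes averaging 1 CPM or more. The 473 such genes of up to 1.57 kb had median log2 fold changes of 0.26 and 0.68 with the 2 doses. Of them 44.8% were called higher at 100 nM and 66.4% at 300 nM. The class of genes over 14 kb had a median of -0.97 at 300 nM. Counts were therefore also tested with offsets from each library's trend on exon length and GC content. After this the median of those 473 short genes was 0.05 and 0.06. The trend was not fully removed for the shortest of them. The 107 genes of up to 1 kb, the class of S100A3, S100A6 and S100A11, kept medians of 0.33 at 100 nM and 0.23 at 300 nM.

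With these offsets the 7 members with DMSO reads fell into 3 kinds. S100A4 was still higher at log2 4.47 and 4.17 (100 and 300 nM), S100A3 at 1.31 and 1.74, and S100A14 was at 0.33, not called, and 1.99 (adjusted p = 2.6e-04, edgeR). S100A10 and S100A11 were still called higher but by much less, at 0.26 and 0.40 with 100 nM and 0.45 each with 300 nM. S100A11 was thus little above the offset median of genes of up to 1 kb at 100 nM (0.33), and further above it at 300 nM (0.23). For S100A10, the class of 1.0 to 1.6 kb had offset medians of 0.01 and 0.02. S100A2 was no longer called, at 0.10 and -0.16, and S100A6 was at 0.05 with 100 nM and lower with 300 nM (-0.36, adjusted p = 1.6e-04). In all, 4 were then higher and 0 lower at 100 nM, where 48.6% of all genes were called (27.8% higher and 20.8% lower). At 300 nM 5 were higher and 1 lower, where 64.8% of all genes were called (34.4% and 30.4%). The trend was fitted robustly after a least-squares trend had moved the short genes to medians of -0.70 and -0.83. With the least-squares trend S100A10 (-0.42 and -0.31) and S100A11 (-0.81 and -0.93) were lower as well, so their direction rests on that choice. S100A4 was higher with both trends. S100A3 with the least-squares trend was at 0.24 with 100 nM, not called, and at 0.52 with 300 nM. The plots of fold change with and without the offsets and of fold change against length show these values.

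**Figure D2:**
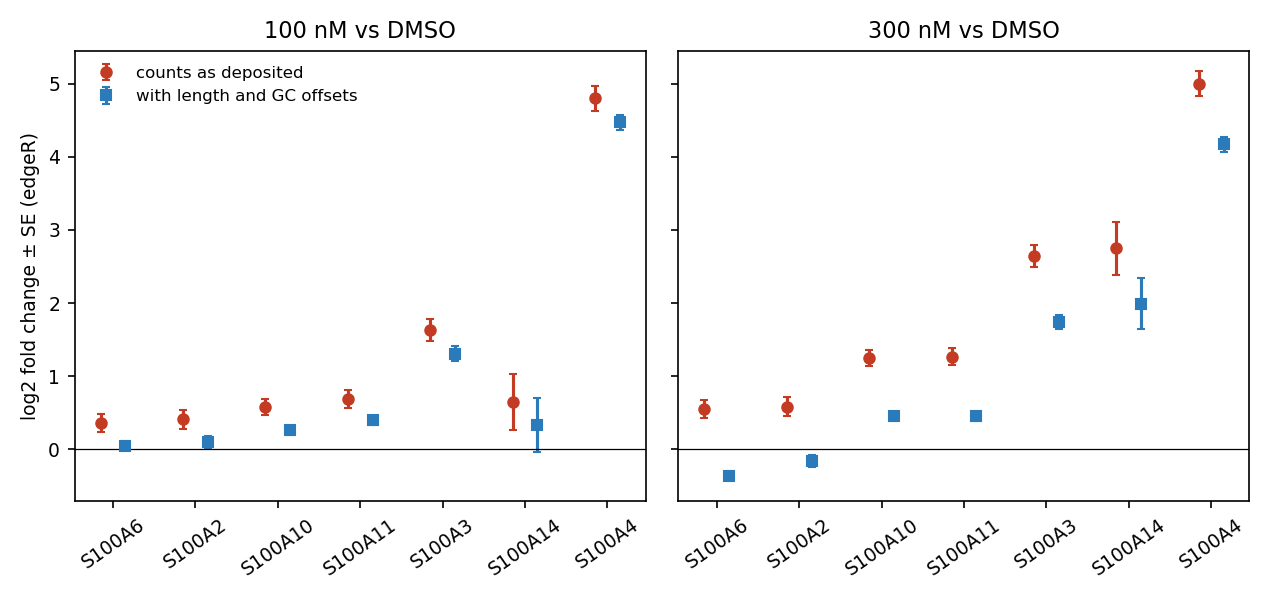
Log2 fold change against DMSO with its standard error for 7 S100 genes at 100 nM (left) and 300 nM (right), from the counts as deposited (circles) and with length and GC offsets (squares). S100P is left out because it had 0 DMSO reads. S100A4, S100A3 and, at 300 nM, S100A14 stay well above 0 with the offsets, whereas S100A6 goes from 0.55 to -0.36 at 300 nM. The offsets shown are robust, and least-squares offsets placed S100A10 and S100A11 below 0 too.

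**Figure D3:**
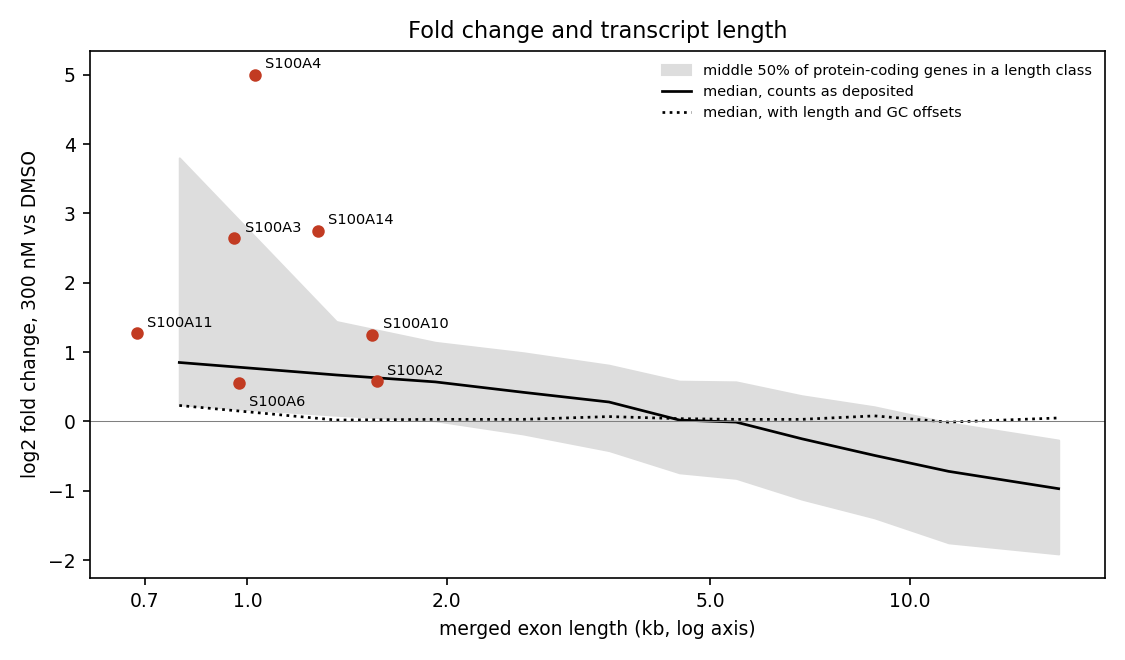
Log2 fold change at 300 nM against DMSO plotted against merged exon length on a log axis. The line and grey band give the median and the middle 50% of protein-coding genes averaging 1 CPM or more in each length class, and the dotted line the median with offsets. S100A6 and S100A2 lie near the line of short genes, at 0.55 and 0.58 before offsets (-0.36 and -0.16 with them), and S100A4 lies far above it at 5.00. S100A3 (2.64) and S100A11 (1.27), like S100A6, lie within the middle 50% of the class of up to 1 kb, 0.24 to 3.8.

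Per kb of exon, which allows levels of different genes to be compared, S100A6 led the DMSO group at 374.2 ± 43.7 CPM per kb (SD, n = 2), followed by S100A11 at 296.0, S100A10 at 145.7, S100A2 at 71.4, S100A3 at 4.58, S100A4 at 2.33 and S100A14 at 0.222. Neighbours in that order did not overlap between libraries, apart from the 3 genes at 0 reads. At 100 nM, S100A6 and S100A11 overlapped (479.9 ± 43.4 and 479.0 ± 42.7 CPM per kb), and S100A4 stood above S100A3, at 64.8 against 14.2. At 300 nM, S100A11 was first at 712.7 ± 117.4 CPM per kb and S100A6 second at 546.1 ± 72.8, with no overlap between their libraries. The share of S100A4 in the summed CPM of the 10 genes was 0.235% and 0.295% in the DMSO libraries, and 4.15% to 5.07% in the decitabine libraries. The share of S100A6 was 40.9% and 39.0% with DMSO and 29% in both libraries at 300 nM.

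S100A8 and S100A9 form calprotectin, the antimicrobial heterodimer of neutrophils and monocytes that also signals through TLR4 and RAGE. S100A8 had 0 reads in 5 libraries and 4 reads in replicate 1 of 300 nM. S100A9 had 2 reads in replicate 2 of 100 nM, 2 in replicate 1 of 300 nM and 0 in the other 4 libraries. The filter on low counts left both out. In the fit of all 37599 genes with a read, neither was called (adjusted p of 0.42 to 1 over the 3 comparisons, edgeR), so no difference was detectable at this depth. Some myeloid markers were higher in the same libraries and others stayed near 0 reads. The summed level of 13 of them was 0.926 to 1.06 CPM with DMSO, 7.15 to 7.69 CPM at 100 nM and 9.58 to 12.2 CPM at 300 nM. This sum is a description, since much of it comes from genes that passed the filter only through the decitabine groups. TYROBP, a signalling adaptor, had the highest level among the 13 markers with decitabine, at 0 reads with DMSO and 3.86 and 5.48 CPM at the 2 doses. FCN1 stayed at 0 reads in every library, and CSF3R, FCGR3B and AIF1 had at most 4 in any library. PTPRC, which encodes CD45, had 12, 11 and 4 reads in the 3 groups. In DMSO, 5 of the 13 markers had 0 reads. Of the 7 tested, CD33, ELANE, LYZ, SPI1 and TYROBP passed the filter only through the decitabine groups. The higher calls of CD33, LYZ, SPI1 and TYROBP at 300 nM are therefore a description. ITGAM was called higher at 300 nM (log2 2.92, adjusted p = 5.4e-07, edgeR) and also with offsets (2.59, adjusted p = 1.0e-05, edgeR). CD14 was called higher at 300 nM on the deposited counts alone (1.03, adjusted p = 0.013, or 0.25, adjusted p = 0.526 with offsets, edgeR), and ELANE was not called. The part of these markers in the S100 results was not tested. TLR4 rose from 3.84 ± 0.162 CPM to 11.2 ± 2.00 CPM at 100 nM and 7.38 ± 2.13 CPM at 300 nM (log2 1.55 and 0.94). With offsets these values were 2.2 and 2.62, and the step from 100 to 300 nM turned from -0.61 to 0.42. AGER, the gene of RAGE, fell from 5.16 to 3.12 CPM at 100 nM (log2 -0.72, adjusted p = 0.004, edgeR) and was at 4.07 CPM at 300 nM, not called on the deposited counts and lower with offsets (-1.12, adjusted p = 3.3e-05).

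Of the 11 other S100 genes, 7 had a read in any library and 4 passed the filter. S100A5 was called higher at 100 nM (log2 1.33, SE 0.48, adjusted p = 0.034, edgeR) and 300 nM (1.91, SE 0.48, adjusted p = 0.002), from 0.256 CPM to 0.970 CPM at 300 nM. The 100 nM call ended without replicate 2 of DMSO or replicate 2 of 100 nM, with DESeq2 and with library totals as the scale, and neither call held with the length and GC offsets (adjusted p = 0.10 and 0.055). S100A16 was at 142.6 CPM with DMSO, 138.7 CPM at 100 nM (log2 -0.04, not called) and 200.6 CPM at 300 nM (0.49, adjusted p = 6.7e-04), and with offsets it was lower at both doses (-0.35 and -0.30). S100A13 (0.29 at 300 nM) and S100A1 (-0.45) were not called, but with offsets both were lower at 300 nM (-0.41 and -1.10, adjusted p = 0.003 each, edgeR). With offsets 0 of the 4 tested genes were thus higher and 3 lower at 300 nM. The exons of those 2 genes share 235 bases on opposite strands, and the reads were counted without strand. S100A7 (psoriasin), S100B and S100Z had 0 reads with DMSO and at most 17 reads in any decitabine library, and S100A7A, S100A7L2, S100A12 and S100G had 0 reads throughout.

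The chromosome 1 genes of the family fall in 1649 kb, from 151982915 to 153632039. S100A6, S100A5, S100A3, S100A4 and S100A2 follow each other there, with starts 1541.9, 1547.4, 1555.0, 1555.7 and 1573.5 kb from that of S100A10. These are the outermost starts of the counted gene models, whereas the RefSeq start of S100A4 shown above lies on the other side of the S100A3 start. Their log2 fold changes at 300 nM were, in that order, 0.55, 1.91, 2.64, 5.00 and 0.58. Genes next to each other in the cluster therefore moved by very different amounts. Between the outermost S100 genes, 68 other genes are annotated, many of them of the skin barrier, and 8 of them were tested. Of these, 1 was called higher and 1 lower at each dose, where 42.7% of all genes were called at 100 nM and 65.9% at 300 nM. LCE5A, a late cornified envelope gene and the one called higher, rose from 0.0266 to 0.298 and 0.605 CPM (log2 3.44 and 4.45). Its DMSO mean lay below the level of 3 reads in a library, and it passed the filter only through the decitabine groups. Its values are therefore a description. FLG, filaggrin, whose protein begins with an S100 domain, fell from 53.3 ± 0.606 to 30.5 ± 10.3 and 10.8 ± 2.56 CPM (log2 -0.81 and -2.30, adjusted p = 0.002 and 1.7e-08, edgeR). Of the 7 fused-type genes that join an S100 domain to a long repeat, 3 were tested, 1 of them (FLG) was called, which is no larger a share than over all genes, and 3 (RPTN, TCHHL1 and CRNN) had 0 reads.

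**Figure D4:**
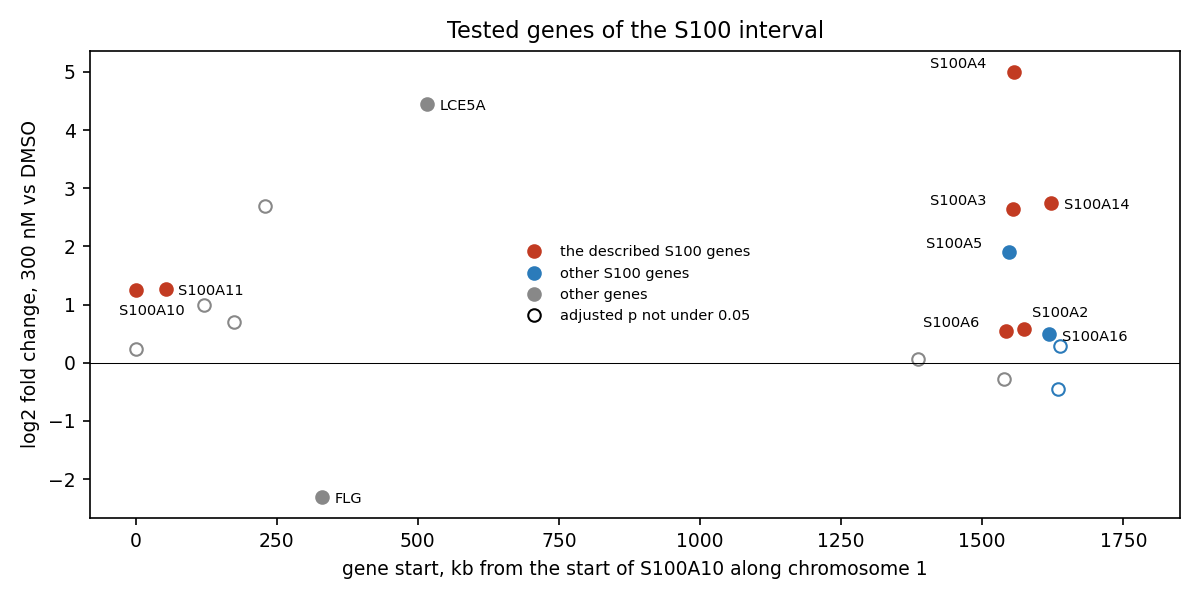
Log2 fold change at 300 nM against DMSO for the 19 tested genes of the chromosome 1 interval, plotted by the distance of the gene start from that of S100A10. Filled points have an adjusted p under 0.05. S100A4 at 5.00 and its neighbours S100A6 and S100A2, at 0.55 and 0.58, lie close together on the chromosome.

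Known binding partners and receptors of S100 proteins moved both ways. Of 25 listed genes 21 were tested, of which 7 were higher and 8 lower at 100 nM, and 11 higher and 8 lower at 300 nM, beside the background shares given above. The median log2 fold change was -0.07 and 0.33, against 0.03 and 0.05 over all genes tested. With length and GC offsets the numbers were 9 higher and 6 lower, and 12 higher and 7 lower. S100A10 assists plasminogen activation at the cell surface. PLAT, tissue plasminogen activator, went from 0.755 ± 0.286 to 24.6 ± 1.01 and 67.3 ± 6.29 CPM (log2 5.02 and 6.47, adjusted p = 1.8e-12 and 7.6e-14, edgeR). PLAU, urokinase, rose from 23.8 to 89.8 and 96.8 CPM, and its receptor gene PLAUR from 52.5 to 154.3 and 227.4 CPM. PLGRKT, a plasminogen receptor, was not called (log2 0.20 and -0.07, adjusted p = 0.312 and 0.694, edgeR), or with offsets was called higher at 300 nM alone (0.46, adjusted p = 0.004). PLG, plasminogen itself, had 2 reads over the 6 libraries and was not tested.

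AHNAK, a giant scaffold held by annexin A2 and S100A10, fell from 2596 ± 61.4 to 1421 ± 181.0 and 629.6 ± 34.3 CPM (log2 -0.87 and -2.04, adjusted p = 2.2e-06 and 2.9e-11, edgeR). On the same scale HLTF, a chromatin remodeller bound by the same pair, fell by 0.97 and 2.44 and IQGAP1, a scaffold that binds S100P, fell by 0.46 and 1.43. With offsets the falls at 300 nM were smaller, at -1.51, -0.95 and -0.47, and IQGAP1 was not called at 100 nM (-0.10, adjusted p = 0.149). EZR, ezrin, was at 0.24 with 100 nM, not called, and rose by 1.17 at 300 nM. The listed genes ANXA2, ANXA1, CACYBP, SUGT1, MYH9, AGER, PLGRKT and PLG are named after their values were seen. ANXA2 was higher, as S100A10 was (log2 0.44 and 0.56, adjusted p = 8.7e-04 and 4.3e-05, edgeR). With offsets ANXA2 was at 0.69 and 1.29, where S100A10 was at 0.26 and 0.45. ANXA1, the partner of S100A11, was lower (-0.40 and -1.31, or -0.05, not called, and -0.21 with offsets). CACYBP and SUGT1, both bound by S100A6, were lower on the deposited counts (log2 -0.35 and -1.32 at 300 nM) and higher with offsets (0.75 and 0.64). MYH9, the myosin heavy chain bound by S100A4, was lower at both doses (-0.52 and -0.30).

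Between the doses, 5 of the 8 tested members were called higher at 300 nM than at 100 nM and 0 lower, where 43.4% of all genes were called (20.0% higher and 23.4% lower; edgeR, adjusted p under 0.05). The 5 were S100A3, S100A10, S100A11, S100A14 and S100P. With offsets 4 were higher (S100A3, S100A10, S100A14 and S100P) and 3 lower (S100A2, S100A4 and S100A6), where 38.6% of all genes were called (19.1% and 19.5%). The 3 comparisons share libraries and are not independent of each other.

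The genes most like each member were found by Euclidean distance over the 6 libraries, on log2(CPM + 0.1) centred on DMSO, among the 12432 protein-coding genes averaging 1 CPM or more. S100A2 and S100A6 were close to each other (distance 0.124), but 3827 and 4046 genes lay within a distance of 1 of them, so this pattern is common. S100A4 had 55 genes within 1, the nearest being SLC6A9 (0.365), GABRE (0.377) and LGALS9 (0.381). The added 0.1 CPM compresses levels near 0, so a small distance need not mean a like fold change. GABRE, at 0.0106 CPM with DMSO, rose by log2 7.89 and 8.01 at the 2 doses. LGALS9, which encodes galectin 9, went from 0.741 to 20.6 and 26.1 CPM. S100P had 60 within 1, the nearest MAGEA9B (0.340), IL34 (0.388) and TEX11 (0.482), of which MAGEA9B and TEX11 also had 0 DMSO reads. IL34 was at 0.116 CPM with DMSO and rose by log2 5.17 and 6.38. MAGEA9B and HSPA1A each have a near-identical copy, so their reads are uncertain. S100A14 had 20 within 1, led by FKBP6 (0.222), HSPA1A (0.442) and KRT18 (0.810).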

How the data were processed

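Polyadenylated RNA of 6 libraries was sequenced. The deposited counts are whole reads per gene, not normalised, made by the authors with STAR, SAMtools and featureCounts 1.5.0-p3 on GENCODE v28, per the file headers and the submitters' processing notes. The recorded command has no paired-end and no strand option, and 70.0% to 74.4% of counts from 1 to 10 were even, so reads are not independent molecules and floors cover counting error only. The notes name hg19 and GRCh37, but all 56933 genes with the same versioned identifier in GENCODE v29 had its GRCh38 coordinates. The deposited log2 matrix holds variance-stabilised values from the authors, per its file name, with settings not stated.

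Symbols came from GENCODE v29 for 58261 genes. edgeR 4.0.16 (R 4.3.3, limma 3.58.1) tested 23160 genes kept by filterByExpr with TMM scaling, in 1 fit of 6 libraries with group as factor, 3 residual degrees of freedom and a biological coefficient of variation of 11.8%. The code was tested on simulated data. Length and GC offsets were robust spline trends (5 degrees of freedom, MASS 7.3.60.0.1) over 12432 genes. They were chosen after seeing that least-squares trends left the 473 short genes at a median of -0.83 at 300 nM. Alternatives were DESeq2 1.42.0, other scalings, no filter, 2 groups only, a replicate block, the deposited matrix and leaving out each library. Named genes were the 10 members, S100 genes with reads, up to 5 called partners per comparison with the smallest adjusted p, the 3 nearest patterns, and interval genes with absolute log2 changes of at least 3. Members and lists were chosen with earlier results of these data known.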

Additional observations from a re-analysis of the deposited data

How the results depend on the processing

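The values above the DMSO level of S100A4, S100A3 and, at 300 nM, S100A14 kept their direction under all 17 alternatives, and they stayed called in each of them except S100A3 at 100 nM with least-squares length and GC offsets (0.24, adjusted p = 0.053, edgeR). With the robust length and GC offsets, 1 member was lower at 300 nM and 3 were lower between the doses, against 0 and 0 without offsets. Of all genes, 30.4% and 19.5% were lower with these offsets. Combined with a replicate block, these offsets gave 2 lower at 300 nM and 3 between the doses, and called 4 other S100 genes at 300 nM, against 2. Least-squares offsets, added after seeing the data, gave 2 members higher and 4 lower at 100 nM, 4 and 4 at 300 nM, and 3 and 3 between the doses. Over all 23160 genes tested they called 14662 at 100 nM and 17349 at 300 nM, most of them lower. They shifted the median of all genes by -0.35 at 100 nM and -0.47 at 300 nM, and the share of calls that were higher from 56.2% to 32.1% and from 52.8% to 34.9%. Library totals as the scale shifted the median by -0.11 at 300 nM and -0.12 between the doses, where that share went from 46% to 35.2%. Of the other S100 genes, 1 was called at 100 nM, against 0 with library totals alone, 0 with DESeq2, 2 with no filter on low counts and 3 with least-squares offsets, and between 0 and 1 when 1 library was left out. Between the doses 1 was called, against 0 with length offsets alone.

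Log2 values that turned were, at 300 nM, S100A2 at -0.16 with length and GC offsets, with or without the replicate block, and -0.83 with least-squares offsets, and S100A6 at -0.12 with length offsets, -0.36 with length and GC offsets, with or without the block, and -1.60 with least-squares offsets. Between the doses, length offsets, length and GC offsets (the same with the block) and least-squares offsets gave S100A2 -0.15, -0.26 and -0.32, S100A4 -0.18, -0.31 and -0.42, and S100A6 -0.21, -0.41 and -0.57. Least-squares offsets also turned S100A2 (-0.51), S100A6 (-1.03), S100A10 (-0.42), S100A11 (-0.81) and S100A14 (-0.39) at 100 nM, S100A10 (-0.31) and S100A11 (-0.93) at 300 nM, and S100A11 between the doses (-0.12). The rise of S100A11 between the doses was not called with length and GC offsets (0.05, adjusted p = 0.55, edgeR), and that of S100A6 was called without replicate 2 of 300 nM (0.32, adjusted p = 0.024). The cause of these changes was not tested.

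Deviations of same-numbered libraries from their group means correlated at 0.02, 0.01 and 0.07, so the numbers were not taken to pair them. With S100P counted, the replicate block alone left 7, 8 and 5 members called higher at 100 nM, at 300 nM and between the doses, as without it. It called 11319, 15865 and 11343 genes in all, against 9895, 15263 and 10054. With 2 libraries a group, 3 residual degrees of freedom and at most 4 reads each, no difference in S100A8 or S100A9 was detectable. Counts of members in these closing paragraphs include S100P, whose calls against DMSO are only a description. The counts of 6 and 7 members called higher at 100 and 300 nM in the Results leave it out.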
